A study of Ovis aries with 16 samples.

Results

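The genes described here encode 10 nuclear receptors that sense fatty acids, oxysterols and foreign chemicals, and were picked by name. They are the peroxisome proliferator-activated receptors PPARA, PPARD and PPARG, and the retinoid X receptors RXRA, RXRB and RXRG. The liver X receptors are NR1H3 (LXR alpha) and NR1H2 (LXR beta), the pregnane X receptor is NR1I2 (PXR), and the constitutive androstane receptor is NR1I3 (CAR). All 10 were found among the 28524 gene entries of the deposited table, and each had a mean normalized read count of at least 10 in liver and in muscle, which was the minimum for testing. RNA sequencing had been done on liver (tip of the left lobe) and on vastus lateralis, a thigh muscle, of 8 female Suffolk sheep, with a library of each tissue from each animal. The 4 BPA sheep (910, 918, 977 and 984) came from mothers injected under the skin each day with 0.5 mg/kg bisphenol A, a plasticizer with oestrogen-like activity, in corn oil, from day 30 to day 90 of gestation. The 4 control sheep (902, 908, 924 and 928) came from mothers given corn oil alone. All 8 had been fasted for 48 hours, were about 21 months old, and were in the late follicular phase of a cycle synchronized with prostaglandin, so every level below is that of a fasted adult. The study asked how the prenatal exposure altered the transcriptomes of these tissues.

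Each of these receptors is a transcription factor that a small lipid-soluble molecule switches on. PPAR, LXR, PXR and CAR proteins bind DNA together with an RXR protein, so the RXRs are partners shared by the whole group. PPAR alpha drives fatty acid oxidation and ketone formation in the fasted liver, PPAR delta promotes fat burning in muscle, and PPAR gamma directs fat cell formation. The LXRs respond to oxysterols and control cholesterol export and fat synthesis, while PXR and CAR induce the enzymes and transporters that clear drugs and bile products from hepatocytes.

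Recovered reads, in units of 1e6 (M), ranged from 4.39 to 19.28 M per liver library and from 15.15 to 28.54 M per muscle library. Most muscle values thus rest on more reads. The livers 902, 918, 977 and 984 had 4.39, 4.66, 7.27 and 10.64 M. The livers 908, 924, 928 and 910 had 18.55, 17.93, 19.28 and 17.92 M. The liver libraries were uneven. In the control liver 902 the median of 20 hepatocyte markers was -2.54 on the log2 scale, relative to the 8-liver mean, while the median of 15 fibroblast and stellate cell markers lay at 4.13. The BPA livers 918, 977 and 984 had hepatocyte medians of -0.32, -0.75 and -0.83, whereas the BPA liver 910 (1.30) sat with the controls 908, 924 and 928 (1.06, 1.13 and 1.14). The summed level of the hepatocyte markers was 179828 to 2322350 in control and 525698 to 2467940 in BPA livers, and that of 15 macrophage markers was 10653 to 17457 in control livers and 2940 to 9710 in BPA livers, with no marker of these 3 lists at 0 in any liver. In whole tissue, fewer cells of a type and less RNA of a gene per cell cannot be told apart. In the text, a sheep number names the animal, values are normalized read counts, and adjusted p-values come from limma, with Benjamini-Hochberg adjustment over all genes tested, unless another tool is named. A gene was called when its adjusted p was under 0.05, and log2 differences are on the log2(value + 1) scale.

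In liver none of the 10 receptors was called for prenatal BPA. The call rate over all 15689 genes tested was also 0.0%, although 2838 genes had an unadjusted p under 0.05. CAR (NR1I3) had the largest difference relative to its error, a mean of 878 ± 363 in BPA against 406 ± 138 in control livers (SD, n = 4 each), and was the only receptor with an unadjusted p under 0.05. The edgeR and DESeq2 tests on whole reads called 0 of the 10 as well (DESeq2 gave PPARG no adjusted p), while DESeq2 called 196 genes in all. No receptor had BPA livers that all lay above or all below the controls. Over all genes tested, 3.63% had BPA livers wholly above and 3.98% wholly below.

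PPARA measured 1300, 5951, 3986 and 3849 in the control livers 902, 908, 924 and 928, and 4896, 5076, 4652 and 4296 in the BPA livers 910, 918, 977 and 984. The control 902 stood far under the other 7 livers, and the BPA values fell inside the range of the remaining controls. The log2 difference was 0.52 (SE 0.47, adjusted p = 0.542), and without the control 902 it was 0.07 (adjusted p = 0.880). PPARD, the most widely expressed PPAR, measured 341, 285, 228 and 275 in controls and 315, 154, 238 and 340 in BPA livers. The groups overlapped throughout, with the lowest value in the BPA liver 918, and the log2 difference was -0.16 (SE 0.31, adjusted p = 0.795).

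PPARG was a low gene in 7 of the 8 livers. It measured 437 in the control 902, against 15.1, 12.1 and 18.1 in the other controls and 14.5, 35.4, 23.7 and 31.9 in BPA livers. These values stand for 232 reads in the control 902 and 17 to 38 reads in each other liver, so counting error is wide outside that library. The control 902 was alone at the top, and 3 of the 4 BPA livers lay above the other 3 controls. With all 8 livers the log2 difference was -0.49 (SE 1.02, adjusted p = 0.806), and without the control 902 it changed sign, to 0.71 (adjusted p = 0.267). On whole reads edgeR gave -2.26 (adjusted p = 0.301) and DESeq2 -2.20, with no adjusted p. In the control 902 the median of 11 adipocyte markers lay at -0.50, and LEP, the leptin gene, and THRSP were at 0 reads. LEP was also at 0 in the livers 908, 924, 910, 977 and 984, and THRSP in 977. These 11 markers summed to 17860 to 78116 in livers, against 1436 to 5599 in muscles, so in liver they do not mark fat cells alone. ADIPOQ, the adiponectin gene, measured 9.42 in the control 902 and 0 to 6.25 in the other livers, and FABP4, a fatty acid carrier of fat cells, 39.6 and 1.68 to 12.8. The fibroblast and stellate marker sum of the control 902 was 123582, against 4470 to 12399 in the other livers. The part of fibroblasts and fat cells in the PPARG value was not tested.

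Among the RXR partners, RXRA measured 3166, 6129, 6133 and 6391 in control livers and 5928, 2257, 6316 and 7549 in BPA livers. The lowest value of each group came from a single library, 902 and 918, and the other 6 livers lay close together. RXRA differed by -0.06 on the log2 scale (SE 0.47, adjusted p = 0.950), with a 95% confidence interval of -1.12 to 0.99. RXRB, the broadly expressed second partner, measured 343, 485, 490 and 425 in controls and 442, 244, 535 and 623 in BPA livers. Its low libraries were again 902 and 918, and the log2 difference was 0.01 (SE 0.33, adjusted p = 0.986). Across the 8 livers log2 levels of RXRA and RXRB correlated at r = 0.95, and across the 8 muscles at r = 0.74. These points share their libraries, so the values only describe how the genes moved together.

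RXRG, the partner best known from skeletal muscle, was the most uneven receptor in liver. It measured 1.88, 337, 119 and 69.1 in controls, and 44.3, 97.9, 0 and 66.4 in BPA livers. The value in the control 902 is 1 read and that in the BPA liver 977 is 0 reads, which allows a level of up to 3.74 (3 reads; counting error only), while the control 908 had 490 reads. Each group thus held a library at or near 0, and the log2 difference was -1.19 with an SE of 1.70 (adjusted p = 0.709). It was 0.32 without the BPA liver 977 and -2.60 without the control 902, neither called (adjusted p = 0.939 and 0.234).

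For the LXRs, NR1H2 measured 503, 522, 486 and 540 in control livers and 523, 250, 627 and 505 in BPA livers. The controls were tightly grouped, and the BPA liver 918 alone fell far under them. NR1H2 differed by -0.18 on the log2 scale (SE 0.32, adjusted p = 0.765), and by 0.10 without that library. NR1H3, the LXR that dominates in hepatocytes and macrophages, measured 350, 2052, 1954 and 1659 in controls and 1592, 1228, 1069 and 985 in BPA livers. All 4 BPA livers lay under the controls 908, 924 and 928, and the control 902 lay under every other liver. The log2 difference was -0.05 (SE 0.55, adjusted p = 0.970) with all livers and -0.65 without the control 902 (adjusted p = 0.152). The macrophage marker sum was also lower in the BPA livers 918, 977 and 984 (2940, 3417 and 4922) than in the BPA liver 910 (9710). Across 918, 977 and 984, in that order, the sum rose while NR1H3 fell. The control 902 had the highest macrophage sum, 17457, and the lowest NR1H3. The part of macrophages in the NR1H3 value was not tested.

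The xenobiotic receptors had the highest BPA means relative to control. NR1I2 (PXR) measured 2791, 3570, 4467 and 3475 in controls and 3233, 6867, 6909 and 5954 in BPA livers. The BPA livers 918, 977 and 984 lay above all controls and the BPA liver 910 lay among them. That gave a log2 difference of 0.64 (SE 0.37, adjusted p = 0.358). NR1I3 (CAR) measured 281, 292, 506 and 544 in controls and 543, 962, 652 and 1353 in BPA livers. The groups met where the BPA liver 910 and the control 928 had nearly the same value, and the other 3 BPA livers lay above every control. The log2 difference was 1.09 (SE 0.38, 95% confidence interval 0.25 to 1.93), or 2.12-fold, with an adjusted p of 0.256. The 3 BPA livers in which both genes were high were also those with lower hepatocyte and macrophage medians than the BPA liver 910. They also had fewer reads, at 4.66, 7.27 and 10.64 M in 918, 977 and 984 against 17.92 M in 910. The parts of cell makeup and read depth in these values were not tested.

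Calls for these receptors depended on the liver libraries 902 and 910. Without the BPA liver 910, NR1I3 was called (log2 difference 1.29, adjusted p = 0.0480), when 7.34% of all genes were called higher. Without 902 and 910 together, 3 receptors were called: NR1I2 at 0.78 (adjusted p = 0.0130), NR1I3 at 1.13 (adjusted p = 0.0293) and NR1H3 at -0.79 (adjusted p = 0.0123). In that fit 19.7% of all genes were called higher and 23.5% lower. These livers were left out with earlier results of these data known, so the p-values of that fit are not an independent test. With sample quality weights, which count uneven libraries less, 4 were called: NR1I2 (0.71, adjusted p = 0.00644) and NR1I3 (0.87, adjusted p = 0.0208) higher, NR1H3 (-0.80, adjusted p = 0.00369) and RXRG (-4.55, adjusted p = 0.00763) lower. The weights are set per library over all genes, and RXRG had 0 reads in the BPA liver 977. Its values in the BPA livers 910, 918 and 984 were 44.3, 97.9 and 66.4. Without the BPA liver 977 the unweighted RXRG estimate was 0.32 (adjusted p = 0.939). The weighted fit called 29.6% of all genes higher and 31.5% lower, and with 2 of 10 in each direction the receptors' shares were not above these. A fit over all 16 libraries called 0 of the 10 in liver, while it called 901 of 15689 genes higher and 1398 lower. It gave NR1I3 an adjusted p of 0.0884.

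**Figure D1:**
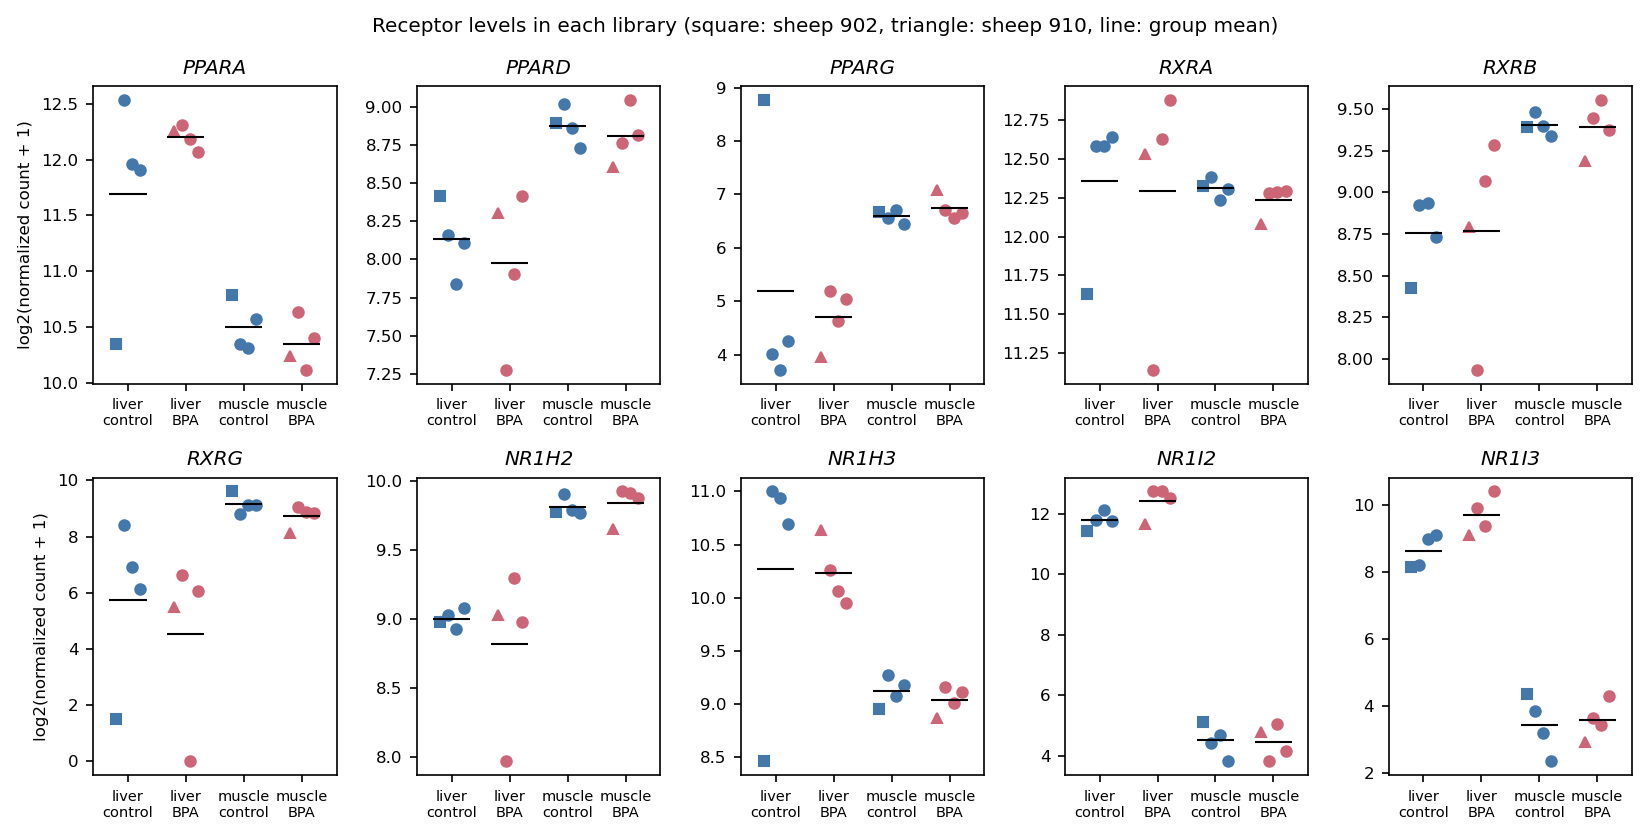
Level of each receptor in each library as log2(normalized count + 1), one panel per gene, by tissue and treatment; a point is a sheep, a square is sheep 902, a triangle is sheep 910 and the line is the group mean (n = 4). Liver points spread more than muscle points except for NR1I2 and NR1I3, sheep 902 is lowest in liver for PPARA, NR1H3, NR1I2 and NR1I3 and highest for PPARG, and NR1I2 and NR1I3 drop between liver and muscle.

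In muscle 8 receptors were more even between animals than in liver, while the spread of NR1I2 and NR1I3 was of similar relative size. Again none of the 10 was called for BPA, where 19 genes in all (0.129% of 14706) were called. No receptor had an unadjusted p under 0.05 there, and edgeR and DESeq2 called 0 of the 10. RXRG came closest, at 787, 447, 550 and 555 in control muscles and 277, 525, 469 and 458 in BPA muscles. The highest value belonged to the control 902 and the lowest to the BPA muscle 910, while the other 6 muscles overlapped. The log2 difference was -0.44 (SE 0.21, 95% confidence interval -0.90 to 0.01, adjusted p = 0.652), and it was -0.24 without the BPA muscle 910. That library was the lowest of the 8 muscles for 6 of the 10 receptors and the highest for PPARG (134, against 85.9 to 103 in the other muscles). It also had the highest median of the 11 adipocyte markers, at 1.05, with the other muscles between -1.07 and 0.25, and a summed level of 5599 against 1436 to 3179. The part of fat cells in these values was not tested.

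The other muscle differences were small. PPARA measured 1765, 1300, 1272 and 1518 in controls and 1209, 1592, 1107 and 1351 in BPA muscles, a log2 difference of -0.16 (SE 0.13). PPARD (388 to 528 over the 8 muscles), RXRA (4324 to 5349), RXRB (582 to 752), NR1H2 (806 to 973) and NR1H3 (467 to 618) had log2 differences of -0.07, -0.08, -0.01, 0.03 and -0.08. PPARG differed by 0.15 (SE 0.14). For these 7 genes every 95% confidence interval lay between -0.45 and 0.47, which limits any BPA difference in muscle more tightly than in liver. NR1I2 (-0.05, SE 0.35) and NR1I3 (0.14, SE 0.47) rested on 16 to 28 and 5 to 23 reads per library and had wider intervals. No receptor had groups that did not overlap in muscle, where 2.05% of all genes had BPA muscles wholly above and 2.48% wholly below the controls.

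**Figure D2:**
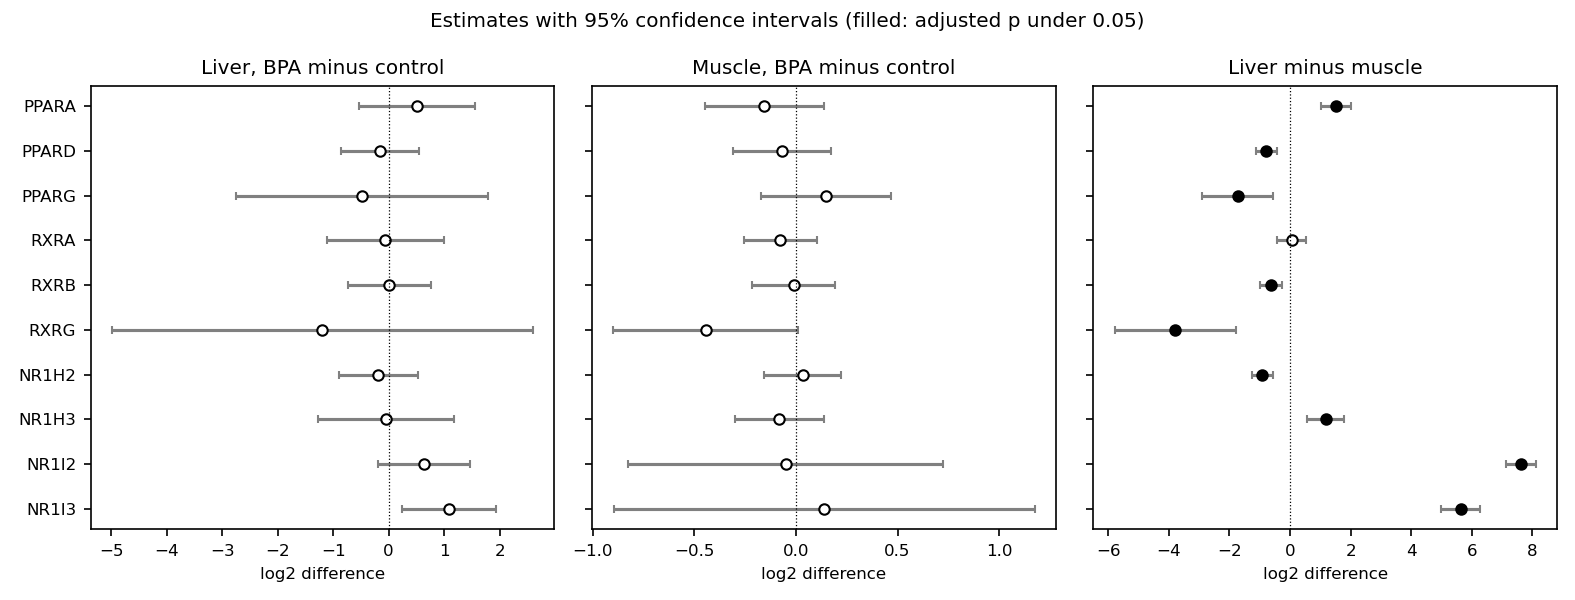
Estimated log2 difference for each receptor (points) with its 95% confidence interval (bars) for BPA minus control in liver, BPA minus control in muscle, and liver minus muscle; filled points have an adjusted p under 0.05 (limma). No point is filled for BPA, the axes differ in range, the BPA interval is wider in liver than in muscle for every receptor but NR1I3, and every receptor but RXRA is filled between the tissues.

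The BPA differences were also compared between the tissues. None of the 10 receptors was called for that difference, and the call rate over all 13677 genes was 0.0%. No receptor had an unadjusted p under 0.05, and edgeR and DESeq2 called 0 of the 10. The difference of NR1I3 was 0.95 log2 units larger in liver than in muscle (SE 0.61, adjusted p = 0.369), that of NR1I2 0.69 (SE 0.47, adjusted p = 0.395) and that of PPARA 0.67 (SE 0.47, adjusted p = 0.417). Without the livers 902 and 910, picked with earlier results known, PPARG (0.81, adjusted p = 0.0416) and NR1H3 (-0.71, adjusted p = 0.00640) were called. That fit called 20.4% of all genes higher and 26.5% lower. With sample quality weights RXRG (-4.54, adjusted p = 0.00197) and NR1H3 (-0.77, adjusted p = 0.00154) were called lower, as were 32.8% of all genes. With all libraries at equal weight, the estimates for PPARG, RXRG and NR1H3 were -0.63, -0.75 and 0.04.

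Between liver and muscle, 9 of the 10 receptors were called, and the PPARs and the LXRs each held members of both directions. Higher in liver were PPARA, NR1H3, NR1I2 and NR1I3, 4 of 10, where 36.1% of all 15995 genes were called higher in liver. Higher in muscle were PPARD, PPARG, RXRB, RXRG and NR1H2, 5 of 10, against 35.3% of all genes. With these shares of all genes called, the number of calls is not a result about the receptors. Levels below are means ± SD over the 8 libraries of a tissue.

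PXR and CAR differed most. NR1I2 measured 4658 ± 1680 in liver and 22.6 ± 8.16 in muscle, a log2 difference of 7.62 (SE 0.23, adjusted p = 7.34e-14), or 197-fold. The muscle values were 34.1, 20.2, 24.6 and 13.1 in controls and 26.7, 13.0, 32.3 and 17.0 in BPA sheep, and the lowest liver value was 2791. NR1I3 measured 642 ± 358 in liver and 11.5 ± 5.48 in muscle, a log2 difference of 5.64 (SE 0.30, adjusted p = 7.60e-11), or 49.7-fold. Its muscle values were 19.5, 13.5, 8.21 and 4.09 in controls and 6.69, 11.5, 9.83 and 18.6 in BPA sheep, far under every liver.

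The small amounts of PXR and CAR RNA in muscle were of the size seen for hepatocyte genes there. The muscle median was 0.558% of the liver median for NR1I2 and 1.96% for NR1I3. For 20 hepatocyte markers it ran from 0.499% (F2, prothrombin) to 2.57% (FGB, fibrinogen beta chain), with serum albumin ALB at 1.21% and all 20 detected in every muscle. The other 8 receptors lay outside that range: PPARA at 29.6%, NR1H3 at 38.7%, RXRA at 81.8%, RXRB at 145%, PPARD at 163%, NR1H2 at 177%, PPARG at 480% and RXRG at 733%. For BPA in muscle, 3 of the 20 hepatocyte markers were called lower, the fibrinogen genes FGA, FGG and FGB, among 17 genes called lower of 14706. The other 17 markers had lower estimates that did not pass, and NR1I2 and NR1I3 were not called. The source of the muscle reads of NR1I2 and NR1I3 was not tested.

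**Figure D3:**
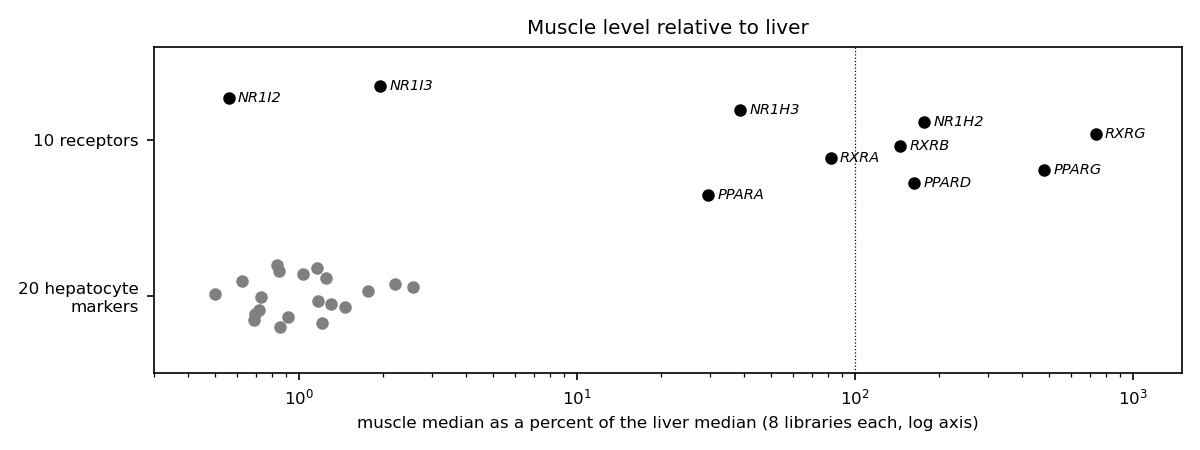
Muscle median as a percent of the liver median (8 libraries each, log axis) for the 10 receptors (black) and 20 hepatocyte markers (grey); the dotted line marks equal levels and vertical spacing has no meaning. NR1I2 (0.558%) and NR1I3 (1.96%) fall among the hepatocyte markers (0.499% to 2.57%), and the other 8 receptors lie at 29.6% or more.

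The remaining receptors differed by smaller steps. PPARA, the PPAR of the fasting response, measured 4251 ± 1367 in liver and 1389 ± 219 in muscle, a log2 difference of 1.52 (SE 0.24, adjusted p = 2.70e-05). Only the control liver 902, at 1300, lay within the muscle range of 1107 to 1765. PPARD was the reverse, at 272 ± 63.7 and 459 ± 47.3, with a log2 difference of -0.79 (SE 0.16, adjusted p = 3.68e-04) and every muscle above every liver. PPARG measured 73.5 ± 147 in liver and 102 ± 14.3 in muscle, and every liver but 902 lay under every muscle. Its log2 difference was -1.72 (SE 0.55, adjusted p = 0.0108). With edgeR PPARG was not called (-0.85, adjusted p = 0.222), where 32.2% of all genes were called higher in muscle, and DESeq2 gave it no adjusted p (-0.89). Without sheep 902 it was -2.31.

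NR1H3 was higher in liver, at 1361 ± 565 against 541 ± 48.5, a log2 difference of 1.17 (SE 0.29, adjusted p = 0.00184), and again only the liver 902, at 350, was not above the muscles. NR1H2, the LXR found in nearly all tissues, was higher in muscle, at 494 ± 108 in liver and 909 ± 59.4 in muscle (log2 difference -0.92, SE 0.16, adjusted p = 7.95e-05), and no liver reached a muscle value. Both LXRs thus differed between tissues, in opposite directions.

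RXRG showed the widest tissue gap among the partners, at 92.0 ± 108 in liver and 508 ± 143 in muscle, a log2 difference of -3.79 (SE 0.94, adjusted p = 0.00187). Its size rests partly on the livers 902 and 977, with 1 and 0 reads of RXRG. It was -3.02 without sheep 902 and -3.01 without sheep 977. On whole reads edgeR gave -2.56 (adjusted p = 0.00193) and DESeq2 -2.61 (adjusted p = 1.12e-04). The ranges overlapped in 1 liver, the control 908 at 337, which lay above the BPA muscle 910 at 277. RXRB was modestly higher in muscle, at 448 ± 116 and 675 ± 50.4 (log2 difference -0.63, SE 0.17, adjusted p = 0.00320), with the BPA liver 984 (623) the single liver above any muscle. RXRA was not called, at 5484 ± 1797 and 4962 ± 298, with a log2 difference of 0.05 and a 95% confidence interval of -0.43 to 0.54 (adjusted p = 0.846). With sample quality weights RXRA was called higher in liver (0.32, adjusted p = 0.00234), as were 42.6% of all genes.

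Ratios within a family were taken inside each library, where the library scaling cancels apart from the added 1. They were log2 ratios of the values, each plus 1, compared by exact two-sided permutation tests, adjusted over the 6 ratios. Since transcript lengths were not used, a ratio here is compared between samples and does not say which member is more abundant. Between tissues all 6 ratios differed over the 8 sheep. PPARA to PPARD was 2.31 log2 units higher in liver, in 8 of 8 sheep (exact sign-flip permutation p = 0.0078, the smallest that 8 pairs can give, adjusted p = 0.0094). RXRA to RXRB (0.69), RXRA to RXRG (3.85) and NR1H3 to NR1H2 (2.09) were also higher in the liver of 8 of 8 sheep, with the same p. RXRA to RXRG was 3.34 without sheep 902 and 3.08 without sheep 977, whose livers had 1 and 0 reads of RXRG. PPARA to PPARG was 3.25 higher in 7 of 8 (permutation p = 0.0156), all but sheep 902.

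CAR to PXR was the exception in direction. The log2 ratio of NR1I3 to NR1I2 differed by -1.99 between liver and muscle and was lower in the liver of all 8 sheep (exact permutation p = 0.0078). It rests on 5 to 23 reads of NR1I3 per muscle library. For BPA against control no ratio was called in liver, where all adjusted p-values were 0.943, or in muscle. In each tissue, 4 against 4 libraries can give an exact permutation p no lower than 0.0286. After adjustment over all the ratios, a ratio with fully separated groups could not be called unless several others also reached that lowest p. The lack of calls therefore says little about BPA and these ratios. The smallest p in liver was that of NR1I3 to NR1I2, at -3.18 ± 0.39 in controls and -2.74 ± 0.53 in BPA livers (exact permutation p = 0.229). In muscle the smallest p was that of NR1H3 to NR1H2 (-0.69 ± 0.10 and -0.81 ± 0.07, exact permutation p = 0.143).

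**Figure D4:**
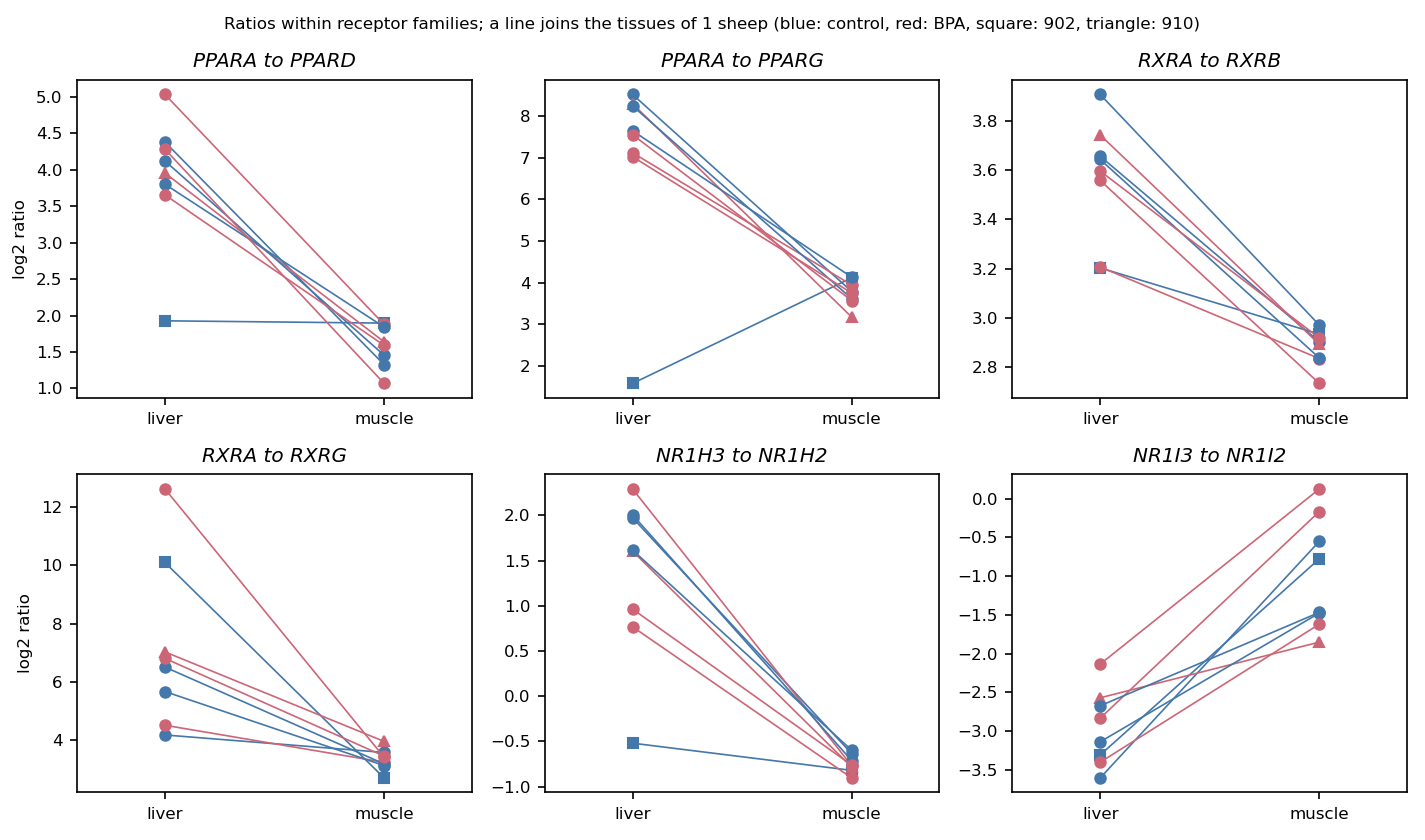
Log2 ratio of receptor values (each plus 1) within each library, with a line joining liver and muscle of the same sheep (blue control, red BPA, square 902, triangle 910). Lines fall from liver to muscle in 8 of 8 sheep for 4 ratios and in 7 of 8 for PPARA to PPARG, where sheep 902 rises, and the NR1I3 to NR1I2 lines rise in all 8.

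The genes whose levels followed each receptor most closely were sought among 12058 genes, by Pearson's r of log2 levels over the 16 libraries after subtracting each tissue's mean. The libraries share depth and tissue makeup, so these are descriptions only. For the PPARs they were MCRIP2 with PPARA (r = 0.98), SEMA3F with PPARD (r = 0.88) and HOXA9 with PPARG (r = 0.99). The PPARG value came from liver, where r was 0.99 with and 0.95 without the control 902, against 0.41 in muscle. MBD6 was closest to RXRA (r = 0.97), SCAF1 to RXRB (r = 0.98) and SEPHS2 to RXRG (r = 0.88). MAP1S was among the 3 closest to RXRA and also to RXRB (r = 0.96 each). LGALS8 followed NR1H3 in both tissues (r = 0.99 in liver and 0.99 in muscle), DPH2 was closest to NR1H2 (r = 0.96), AK8 to NR1I2 (r = 0.88) and RPS6KA4 to NR1I3 (r = 0.79). The next closest were SLC25A34 and HHEX for PPARA, RAB7A and KREMEN1 for PPARD, TANC2 and LAMA2 for PPARG, CASTOR2 and MAP1S for RXRA, and MAP1S and MAP3K11 for RXRB. For RXRG they were PSMD6 and NAA30, for NR1H2 GBGT1 and PES1, for NR1H3 GCAT and IVD, for NR1I2 MCRS1 and NGEF, and for NR1I3 PPP1R35 and MAF1, with r of 0.79 to 0.99 for all these pairs. In muscle alone r for these pairs ran from 0.07 (NR1H3 and IVD) to 0.99 (NR1H3 and LGALS8). In liver without the control 902 it ran from 0.48 (PPARA and SLC25A34) to 0.995 (RXRA and MAP1S). PPARA and MCRIP2 had r = 0.98 in liver and 0.96 in muscle, but 0.72 in liver without the control 902.

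Genes known to act with or under the receptors were counted by list. None of them was called for BPA in either tissue. Of 29 PPAR alpha targets tested in liver, 22 had lower and 7 higher estimates (median log2 difference -0.28, against -0.01 over all genes), and of 28 in muscle 18 were lower (median -0.06). CPT1A, the gate of mitochondrial fatty acid uptake, measured 5123 ± 1957 in control and 5619 ± 1257 in BPA livers (n = 4 each), a log2 difference of 0.20 (SE 0.41). PDK4, which spares glucose, differed by -0.18 (SE 0.55) and the lipase inhibitor gene ANGPTL4 by 0.43 (SE 0.43). None of these 3 differences was larger than its SE.

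PPAR gamma targets of fat cells numbered 14 in the liver test, 6 higher and 8 lower (median -0.14), and 16 in muscle, 10 higher and 6 lower (median 0.05). The lipoprotein lipase gene LPL measured 48.1 ± 32.1 in control and 13.7 ± 13.5 in BPA livers, a log2 difference of -2.15 (SE 0.80, adjusted p = 0.256), and is listed as an LXR target too. The fatty acid carrier gene FABP4 differed by -1.43 in liver (SE 0.76) and 0.45 in muscle (SE 0.37), and ADIPOQ by -0.15 in muscle (SE 0.51). LXR targets were evenly split in liver, 9 higher and 9 lower (median -0.05), and 9 to 7 in muscle (median 0.05). SREBF1, the switch of fat synthesis, differed by -0.58 in liver (SE 0.30) and 0.37 in muscle (SE 0.14). The sterol exporter gene ABCG1 differed by -0.90 (SE 0.63) and 0.53 (SE 0.19), ABCA1 by 0.16 (SE 0.35) and 0.14 (SE 0.10), and the LDL receptor regulator gene MYLIP by 0.17 (SE 0.33) and -0.16 (SE 0.12).

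PXR and CAR targets had 4 higher and 10 lower estimates of 14 in liver (median -0.21), and 2 higher and 8 lower of 10 in muscle (median -0.17). CYP3A24, the sheep drug-metabolising cytochrome of the list, measured 14280 ± 9684 in control and 11385 ± 6101 in BPA livers (log2 difference 0.17, SE 0.95). Its BPA mean was thus lower while its estimate, taken on log2 values, was higher and well under its SE. The drug exporter gene ABCB1 differed by 0.63 (SE 0.43) and ALAS1, the first enzyme of haem synthesis, by 0.75 (SE 0.52). These 3 are among the 4 higher estimates; the epoxide hydrolase gene EPHX1, chosen after its values were seen as the lowest estimate, measured 27229 ± 17363 in control and 10074 ± 9227 in BPA livers (log2 difference -0.998, SE 1.09). The higher BPA means of PXR and CAR stood beside target estimates in both directions, none of them called.

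Coregulators had 17 higher and 9 lower estimates of 26 in liver (median 0.24) and 13 of each in muscle (median -0.01). The coactivator gene PPARGC1A measured 512 ± 167 in control and 1052 ± 525 in BPA livers (log2 difference 0.94, SE 0.46, adjusted p = 0.299). The corepressor gene NCOR1 differed by 0.59 (SE 0.38), NCOA1 by 0.25 (SE 0.25) and NRIP1 by 0.27 (SE 0.30) in liver. In muscle NRIP1 measured 1501 ± 248 in control and 1119 ± 37.2 in BPA sheep (-0.41, SE 0.11, adjusted p = 0.277). The other partners of RXR were split 4 to 5 in liver and 4 to 4 in muscle, with medians of 0.00. The bile acid receptor gene NR1H4 (FXR) measured 563 ± 174 in control and 1699 ± 1121 in BPA livers, a log2 difference of 1.43 (SE 0.47, adjusted p = 0.256). RARA, THRB and VDR differed in liver by -0.14 (SE 0.31), 0.40 (SE 0.28) and -0.67 (SE 0.43).

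Genes of ligand supply, which make or carry oxysterols, retinoids and fatty acids, had 15 lower and 3 higher estimates of 18 in liver (median -0.77) and 8 lower and 9 higher of 17 in muscle (median 0.03). The oxysterol enzyme gene CH25H measured 42.6 ± 9.87 in control and 27.2 ± 7.94 in BPA livers (log2 difference -0.64, SE 0.37, adjusted p = 0.359). Hepatocyte and macrophage marker medians were lower in the BPA livers 918, 977 and 984 than in the BPA liver 910. The livers 918, 977 and 984 also had fewer reads than 910. The parts of cell makeup and read depth in the list were not tested.

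**Figure D5:**
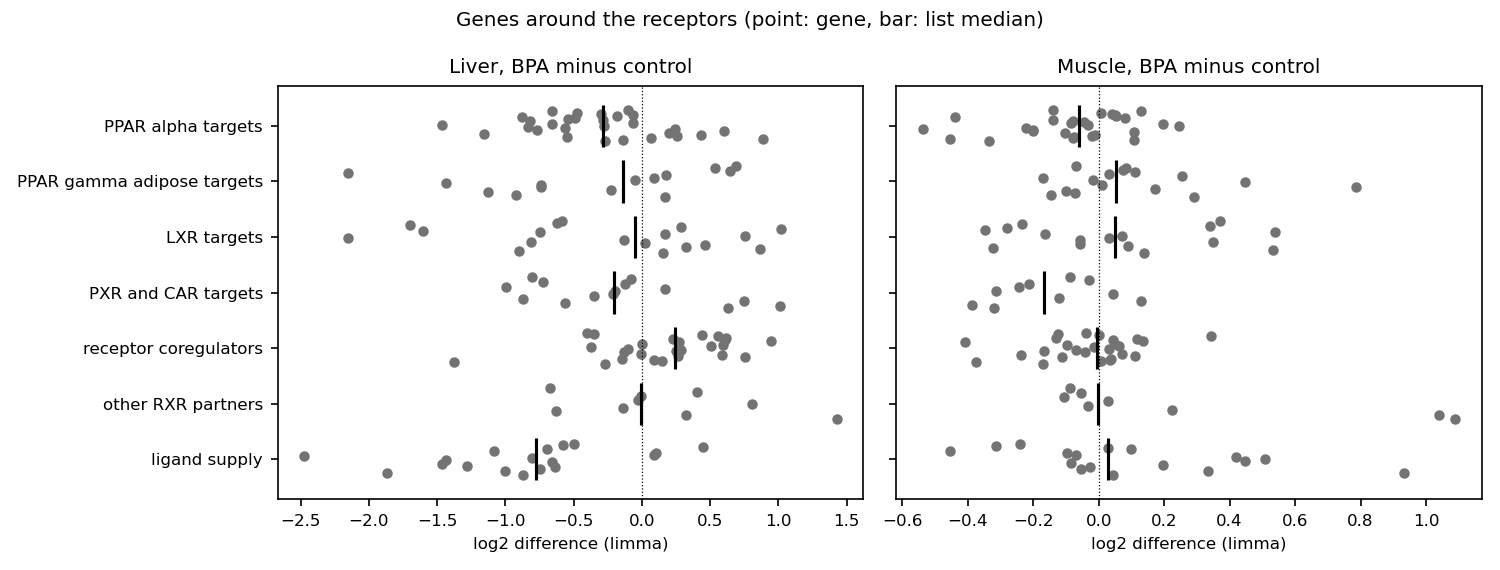
Log2 difference between BPA and control for each gene of 7 lists around the receptors (points) with the list median (bars), in liver and in muscle; no gene had an adjusted p under 0.05 (limma). The liver points spread wider than the muscle points (the axes differ), and the ligand supply list has the lowest liver median, -0.77.

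The same lists were also counted between tissues, where 36.1% of all genes were called higher in liver and 35.3% higher in muscle. Of 14 PXR and CAR targets 13 were called higher in liver and 0 lower, led by the bile exporter gene ABCC2 (7811 ± 3864 in liver and 71.7 ± 16.4 in muscle, n = 8 each), CES2 and CYP2A6, with a list median of 5.84 against 0.06 over all genes. Among 30 PPAR alpha targets, 14 were called higher in liver and 9 in the other direction. The transcription factor gene CREB3L3 (log2 difference 7.62) led in liver, and the uncoupling protein gene UCP3 (-10.00) and the carrier gene FABP3 (-7.89) led in muscle. Of 16 PPAR gamma targets, 5 were called higher in liver and 10 higher in muscle, among them PLIN4 (-10.07) and LIPE (-4.86), both higher in muscle. Of 18 LXR targets, 8 were called higher and 7 lower in liver, led by ABCG8 (6.57), MLXIPL (6.04) and ABCG5 (6.37), all higher in liver.

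Of 26 coregulators, 15 were called higher in muscle and 2 higher in liver, against the same shares of all genes (35.3% and 36.1%), which also stand beside the counts that follow. LPIN1 (-4.52) and PPARGC1B (-3.30) led in muscle and LPIN2 (3.19) in liver. Of 9 other RXR partners 2 were called higher in liver, led by NR1H4 (1131 ± 960 against 5.35 ± 2.43, log2 difference 7.20), and 4 higher in muscle, among them NR4A1 (-3.48) and NR4A2 (-3.57). Of 19 ligand supply genes, 10 were called higher in liver and 5 higher in muscle. They were led by the carrier gene FABP3 in muscle, the retinol dehydrogenase gene RDH10 in liver and FABP4 in muscle (-4.57).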

How the data were processed

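Libraries had been made from ribosome-depleted RNA with a SMARTer low-input kit, per the labels' protocols. Trimmomatic, FastQC and DESeq2 1.24.0 were used, per the submitters' processing notes. Which aligner, counter, build, annotation and strand setting were used is not given in the sources used here. Genes with overlapping or near-identical neighbours are thus uncertain. The authors deposited a normalized signal, counts divided by a size factor per library; at least 99.996% of values were whole multiples of 1 read within 0.1 read. From 28524 table entries, 3425 at 0 everywhere, genes averaging 10 or more in a tissue were tested there in R 4.3.3 with limma 3.58.1, on the log2 of the value plus 1, with an intensity trend and Benjamini-Hochberg adjustment over all genes. The pseudocount can understate changes of low genes. The main estimates are not always the smaller ones, as edgeR and DESeq2 gave smaller tissue differences for RXRG and PPARG. Liver against muscle and the difference between BPA effects came from a 4-group fit of the 16 libraries. Recovered reads were also tested with edgeR 4.0.16 and DESeq2 1.42.0. The replicates are separate sheep by their labels, and no 2 libraries of a group agreed within sampling noise. The same sheep gave both tissues, per the labels; its deviations from group means correlated between tissues at -0.10 to 0.12 across 13677 genes. The scripts were tested on simulated data. Of the names, 22656 were in the RefSeq table of ARS-UI_Ramb_v3.0, used for names only, all 10 receptors among them.

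The receptors, gene lists and tests were chosen with earlier results of these data known. The named genes were the 10 receptors, a panel of up to 4 genes per list, up to 3 genes per list past the threshold by smallest p, and the closest genes by correlation. The panel genes CYP2B6, CD36, CYP27A1 and CYP7B1 were not analysed here. Some genes chosen this way are not reported here. Alternatives were other pseudocounts, filters, scalings and tests, robust and weighted fits, a joint fit, left-out libraries, and sheep as a block.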

Additional observations from a re-analysis of the deposited data

Results flagged for a closer look

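A test for a library far from the other 3 of its group (Dixon's gap over range at the 95% level) was applied to 64 groups of 4 values and marked 7, where chance marks about 1 in 20. The control liver 902 accounted for 4 of them. PPARG there was 437, with the other controls at 12.1 to 18.1, and RXRA was 3166, with the others at 6129 to 6391. Its log2 ratio of PPARA to PPARG was 1.57 (others 7.65 to 8.53) and that of NR1H3 to NR1H2 was -0.52 (others 1.62 to 2.01). The BPA muscle 910 had RXRA at 4324, with the other BPA muscles at 4974 to 5024. The control muscle 908 had NR1H2 at 961, with the others at 873 to 884. The BPA muscle 977 had a log2 ratio of NR1H3 to NR1H2 of -0.91, with the others at -0.79 to -0.76.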

How the results depend on the processing

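The liver estimates are limited by uneven libraries and, for PPARG and RXRG, by few reads. Receptors called in liver for BPA numbered 0 of 10 with 0.5 or 5 as pseudocount, no filter or a mean of at least 50, TMM scaling, edgeR, DESeq2, robust and joint fits, 4 with sample quality weights and 3 without the livers 902 and 910 (chosen with earlier results known). For the difference between BPA effects these last 2 settings called 2 and 2. Leaving out each liver gave 0 to 1. In muscle every setting called 0, and leaving out the livers does not touch that fit. Between tissues 8 to 10 were called, 9 with sheep as a replicate block (paired by animal, in both block fits), and the block called 0 for the difference between effects; all 6 ratios passed with and without pairing. Of the sign changes that follow, the cause was not tested. With sample quality weights the liver BPA estimates became 0.14 (NR1H2), 0.062 (PPARD), 0.78 (PPARG) and 0.054 (RXRA), and the differences between effects -0.77 (NR1H3) and 0.68 (PPARG). Without 902 and 910 they were 0.96 (PPARG) and -0.10 (RXRB) in liver, -0.71 (NR1H3) and 0.81 (PPARG) between effects, and -0.52 (NR1H3 to NR1H2) and -0.91 (PPARA to PPARG) for ratios. TMM gave RXRB -0.019 in liver. edgeR gave RXRB 0.0023 in muscle and NR1H3 -0.16 between effects; DESeq2 gave RXRA 0.023 in liver and NR1H3 -0.19 between effects. Leaving out 1 library at a time moved the liver estimates over -0.98 to 0.71 (PPARG), -0.16 to 0.29 (RXRB), -0.31 to 0.32 (RXRA), -0.65 to 0.20 (NR1H3), -0.30 to 0.075 (PPARD), -0.34 to 0.10 (NR1H2) and -2.60 to 0.32 (RXRG). In muscle it moved NR1I2 over -0.28 to 0.16, RXRB over -0.066 to 0.058 and NR1I3 over -0.23 to 0.44. RXRA between tissues ran from -0.035 to 0.25. Differences between effects ran from -1.16 to 0.53 (PPARG), -0.51 to 0.27 (NR1H3) and -2.31 to 0.82 (RXRG). Liver ratios ran from -0.64 to 1.68 (PPARA to PPARG), -0.46 to 0.38 (NR1H3 to NR1H2), -0.21 to 0.030 (RXRA to RXRB) and -0.50 to 2.29 (RXRA to RXRG). Muscle ratios ran from -0.20 to 0.072 (PPARA to PPARD) and -0.14 to 0.51 (NR1I3 to NR1I2).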
